A study of Mus musculus with 24 samples.

Results

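Head-to-head coding gene pairs are neighbouring protein-coding genes that lie on opposite strands and are transcribed away from each other from transcription start sites (TSSs) placed close together. A pair was taken when the gene on the minus strand lay on the left, the gene bodies did not overlap and the outermost TSSs were at most 1000 bp apart. The rule found 787 pairs on the 19 autosomes and the X chromosome, with 1551 of the 21755 protein-coding genes of the annotation (GENCODE vM21 basic). A gene stood in 2 or more pairs in 23 cases, and genes that the annotation lists under several identifiers with 1 symbol were counted by identifier. The distance between the TSSs had a median of 144 bp (quartiles 76 and 276.5 bp, from 1 to 996 bp).

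H3K4me3, trimethylation of lysine 4 on histone H3, was profiled in C127, a cell line of the mouse mammary gland, by ChIP-seq, as part of a study of the CpG-binding protein CFP1 and its mutants. The series held 24 samples in 12 groups, and the peak list used here was the consensus of the H3K4me3 ChIP, with 3 replicates of C127 cells set against 1 input sample. The 21 other samples, of ChIP for endogenous CFP1, KDM2B, RNA polymerase II, GFP and GFP-tagged CFP1 with or without mutations, and of inputs, were not analysed here. The list held 13451 peaks in mm10, of which 13447 lay on the 20 chromosomes used, with a median width of 2647 bp. It gives positions alone, so there is no height, no depth and no spread between replicates behind any value below. The intervals given are 95% Wilson intervals, which cover the number of pairs or genes counted and not the error of the ChIP. The TSSs of 2 of 10 luminal markers (Gata3 and Esr1), 0 of 5 basal markers and 4 of 7 fibroblast or mesenchymal markers (Vim, Fn1, Snai1 and Twist2) had a peak, and the TSSs of the keratin genes Krt8 and Krt18 and of Epcam and Cdh1 had none. Thus 13 of these 15 luminal and basal markers lacked a peak at their outermost TSS, beside a share with a peak of 47.6% over all coding genes, which the 4 of 7 mesenchymal markers lay near.

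In mammals, H3K4me3 marks the starts of active genes and is found mostly at CpG islands, stretches of DNA that keep their CpG dinucleotides and are usually unmethylated. The SET1 methyltransferase complexes are brought there in part by CFP1, whose CXXC domain binds unmethylated CpG and whose PHD domain binds H3K4me3. Head-to-head genes are transcribed in both directions from a common stretch of DNA, often a CpG island without a TATA box, and many encode proteins of DNA repair, mitochondria and RNA metabolism.

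The DNA between the TSSs of such a pair is short enough to be read whole. The sequences below are shown from the GRCm38.p6 reference, plus strand, 5′ to 3′, with the minus-strand gene to the left of the first base and the plus-strand gene to the right of the last. The first 4 belong to pairs with 1 shared peak, chosen as the first that could be shown among the widest peaks (Polr2l/Tspan4, an RNA polymerase II subunit and a tetraspanin), the most even peaks (Idh3g/Ssr4, a subunit of mitochondrial isocitrate dehydrogenase and a subunit of the translocon-associated complex), the tRNA synthetases (Kars, which charges lysine tRNA, with Terf2ip, a telomere protein) and the narrowest peaks (H2-T22/Gm6034, where H2-T22 is an MHC class Ib gene). Capitals mark matches, on either strand, to the motifs searched.
Polr2l/Tspan4 (chr7:141475133-141475239): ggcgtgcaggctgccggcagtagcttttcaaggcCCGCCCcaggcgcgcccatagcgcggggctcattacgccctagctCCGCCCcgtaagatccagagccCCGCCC
Idh3g/Ssr4 (chrX:73786898-73787027): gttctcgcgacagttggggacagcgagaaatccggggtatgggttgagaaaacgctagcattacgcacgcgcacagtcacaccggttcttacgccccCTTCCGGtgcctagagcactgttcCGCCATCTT
Kars/Terf2ip (chr8:112011324-112011397): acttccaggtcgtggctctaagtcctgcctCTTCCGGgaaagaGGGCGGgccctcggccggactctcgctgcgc
H2-T22/Gm6034 (chr17:36042748-36042960): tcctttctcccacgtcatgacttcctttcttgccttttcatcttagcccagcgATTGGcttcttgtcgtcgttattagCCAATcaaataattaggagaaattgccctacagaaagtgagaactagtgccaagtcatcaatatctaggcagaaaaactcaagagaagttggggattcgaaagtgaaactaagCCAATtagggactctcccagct
Polr2l/Tspan4 held 3 GC boxes, all read on the minus strand, and 11 CpGs in 107 bp. Idh3g/Ssr4 held an ETS site and a YY1 site, the YY1 site at the end next to Ssr4. H2-T22/Gm6034 held 5 CpGs in 213 bp at 42.7% GC.

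The next 3 show a histone pair with a peak on 1 side only, a histone pair with a shared peak, and the first pair without a peak among those richest in CpGs that could be shown (Ppp1r3d, a regulatory subunit of protein phosphatase 1, and Fam217b).
Hist1h2ak/Hist1h2bn (chr13:21753828-21754122): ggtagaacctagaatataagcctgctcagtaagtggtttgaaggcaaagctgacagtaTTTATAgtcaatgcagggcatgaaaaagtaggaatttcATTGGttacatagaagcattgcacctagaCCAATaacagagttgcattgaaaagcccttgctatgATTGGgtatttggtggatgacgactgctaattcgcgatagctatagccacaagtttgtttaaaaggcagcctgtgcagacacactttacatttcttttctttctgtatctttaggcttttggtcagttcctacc
Hist2h2ac/Hist2h2be (chr3:96220881-96221118): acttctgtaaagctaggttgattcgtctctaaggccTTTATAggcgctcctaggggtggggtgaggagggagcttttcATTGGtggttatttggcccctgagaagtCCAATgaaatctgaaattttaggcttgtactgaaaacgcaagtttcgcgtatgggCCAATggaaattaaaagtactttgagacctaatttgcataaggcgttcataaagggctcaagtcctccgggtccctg
Ppp1r3d/Fam217b (chr2:178414473-178414523): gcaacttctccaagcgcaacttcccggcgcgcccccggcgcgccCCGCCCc
Both histone sequences held 3 CCAAT boxes and a TATA box, at 40.3% GC in Hist1h2ak/Hist1h2bn and 45.8% GC in Hist2h2ac/Hist2h2be. The 51 bp of Ppp1r3d/Fam217b held 8 CpGs at 78.4% GC, and the nearest peak to the pair was 1233430 bp away. A motif match is a description of the letters and was not tested for binding.

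At these 787 pairs, H3K4me3 came almost always as 1 block over both starts. A single peak lay within 250 bp of both TSSs in 712 pairs, or 90.5% (interval 88.2 to 92.3%). A peak lay at 1 TSS only in 11 pairs, or 1.40% (0.782 to 2.49%), and 64 pairs, or 8.13% (6.42 to 10.3%), had none. No pair had 2 separate peaks, 0 of 787, for which the Wilson interval runs to 0.486% and a floor of 3 counts gives 0.381%, for counting error alone. Of the 723 pairs with any peak, 712 shared it (98.5%, 97.3 to 99.1%). The authors had joined peaks within 250 bp of each other, and the smallest gap left in the list was 251 bp. Separate peaks could therefore appear only where the gap was wider than that. The tolerance sets a limit too. Where the TSSs were at most 250 bp apart, a peak that covered 1 TSS counted as at both. One-sided or separate peaks could then come only from peaks that covered neither TSS. With a tolerance of 0 bp, 89.2% of pairs had a shared peak, 1.78% a peak at 1 TSS only, and none had separate peaks. The shared peak covered both TSSs in 702 of 712 pairs. The 712 pairs had 689 distinct peaks, since 23 peaks belonged to 2 or more pairs.

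A peak lay at the TSS of 1414 of the 1551 pair genes (91.2%, 89.7 to 92.5%), against 8945 of the 20204 coding genes in no pair (44.3%, 43.6 to 45.0%). Over all coding genes of the annotation the share was the 47.6% given above. The share was higher in pair genes on every one of the 20 chromosomes, by 45.6 ± 5.55 percentage points (mean ± SD over chromosomes, lowest 32.4). Pair genes were richer in CpG. A CpG-rich promoter, defined over 500 bp around the TSS by a GC fraction from 0.5 upwards and a ratio of observed to expected CpGs from 0.6 upwards, was found at 1336 of 1551 pair genes (86.1%), against 47.2% of coding genes in no pair. Within CpG-rich promoters, 95.4% of pair genes had a peak, against 78.0% of coding genes in no pair, and 80.1% over all such genes. Within the remaining promoters the shares were 64.7% (139 of 215) in pair genes and 14.2% (1516 of 10677) in coding genes in no pair. These 2 shares are not at like CpG content of the locus. In 86 pairs only 1 promoter was CpG-rich, so some of the 215 genes had a CpG-rich partner whose peak can count at both TSSs. Where neither promoter was CpG-rich, 32 of 65 pairs shared a peak (49.2%). The 2 genes of a pair share their promoter region, so pair genes are not independent, and the part of CpG content in the difference was not tested beyond this split.

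The share with a peak followed the number of CpG-rich promoters in the pair. With both promoters CpG-rich, 607 of 636 pairs had a shared peak (95.4%) and 25 had none. With 1 CpG-rich promoter, 73 of 86 pairs shared a peak (84.9%, 75.8 to 90.9%). With none, 32 of 65 did (49.2%, 37.5 to 61.1%), and 31 had no peak. A single CpG-rich start therefore went with a peak over both genes in most pairs.

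The textbook pairs illustrate the pattern. Of 11 pairs looked up by name, 5 were members, and all 5 had a shared peak. The other 6 did not meet the geometry in this annotation. Hspd1 and Hspe1, the mitochondrial chaperonins Hsp60 and Hsp10, start 108 bp apart on chromosome 1 (TSSs at 55088024 and 55088132), and their peak was 5884 bp wide, reaching 3361 bp into Hspd1 and 2414 bp into Hspe1. Brca1, a DNA repair gene, and Nbr1, an autophagy receptor, start 270 bp apart on chromosome 11, with a peak of 4459 bp that reached 1681 bp into Brca1 and 2507 bp into Nbr1. Atm, a kinase of the DNA damage response, and Npat, a coactivator of histone genes, had a peak of 5071 bp with reaches of 2582 and 2181 bp. Mcm4, a subunit of the replicative helicase, and Prkdc, the catalytic subunit of DNA-dependent protein kinase, had a peak of 3962 bp with reaches of 2059 and 1413 bp. Mrps12, a mitochondrial ribosomal protein, and Sars2, the mitochondrial enzyme that charges serine tRNA, had a peak of 3499 bp with reaches of 2038 and 1278 bp. The longer reach lay in the minus-strand gene in 4 of these 5 pairs.

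**Figure D1:**
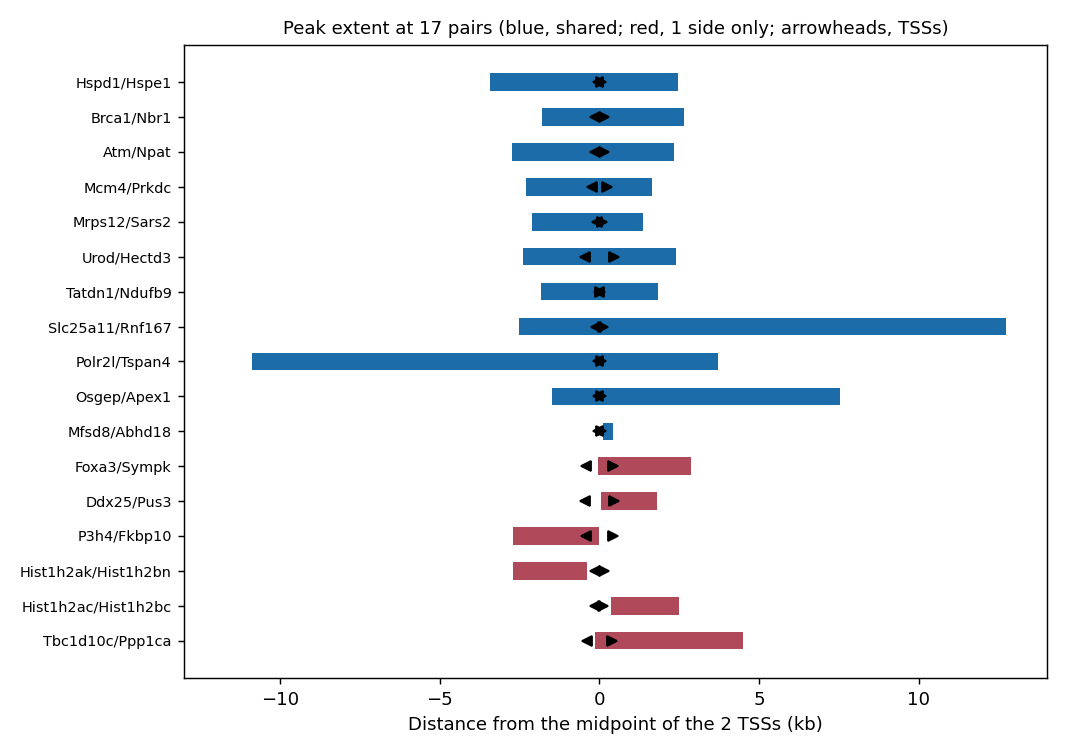
Peak extent at 17 pairs, in kb from the midpoint of the TSSs (x axis), with 1 row a pair: bars are peaks, blue where the peak is at both TSSs and red where it is at 1 TSS, and arrowheads point along each gene from its TSS. The peaks of the 5 textbook pairs at the top span 3499 to 5884 bp, while the peak of Slc25a11/Rnf167 runs 12616 bp past the TSS of Rnf167 and the peaks of the 2 histone pairs in red begin outside both arrowheads.

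The distance between the TSSs went with how often the peak was shared. At up to 100 bp, 273 of 286 pairs shared a peak (95.5%, 92.4 to 97.3%). None of the 286 had a peak at 1 TSS only, for which the tolerance of 250 bp left little room at such distances. The share was 91.5% above 100 and up to 200 bp, 86.5% up to 300 bp, 93.2% up to 500 bp, 75.6% up to 700 bp (34 of 45) and 72.7% up to 1000 bp (32 of 44, 58.2 to 83.7%). Just inside the limit of 1000 bp, above 900 bp, 9 of 12 pairs shared a peak, and just outside it, up to 1100 bp, 7 of 13 did. Adjacent divergent coding genes with TSSs above 1000 and up to 2000 bp apart shared a peak in 47 of 112 cases (42.0%), and 6 of the 112 had 2 separate peaks. Above 2000 and up to 5000 bp, 26 of 280 shared a peak (9.29%) and 81 had separate peaks (28.9%). Above 5000 and up to 10000 bp and above 10000 and up to 50000 bp no peak was shared, in 0 of 461 and 0 of 1591 cases, which by the same floor of 3 counts allows shares of up to 0.651% and 0.189%. With the tolerance of 250 bp around the TSS, separate peaks were seen only beyond 1000 bp, and with 500 bp 0.254% of the 787 pairs had them.

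A comparison with single genes shows how far a peak spreads upstream without a partner. Single coding genes were those in no pair and with no coding or lncRNA TSS on the opposite strand within 2 kb. Of the 7095 single genes with a peak, 97.0% had it spread at least 100 bp upstream of the TSS, 69.7% at least 500 bp and 34.3% at least 1000 bp. For pairs with a peak, the shared share stood at 100% at up to 100 bp, against 99.8% of single genes whose peak spread upstream far enough to come within 250 bp of a TSS placed as in those pairs. Above 500 and up to 700 bp it was 97.1% in pairs (34 of 35) against 81.8% for single genes, and above 700 and up to 1000 bp 86.5% in pairs (32 of 37) against 62.9% for single genes. At the shortest distances the spread of single-gene peaks reached as far as the other TSS lies in nearly all cases, and above 500 bp the pairs exceeded it.

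**Figure D2:**
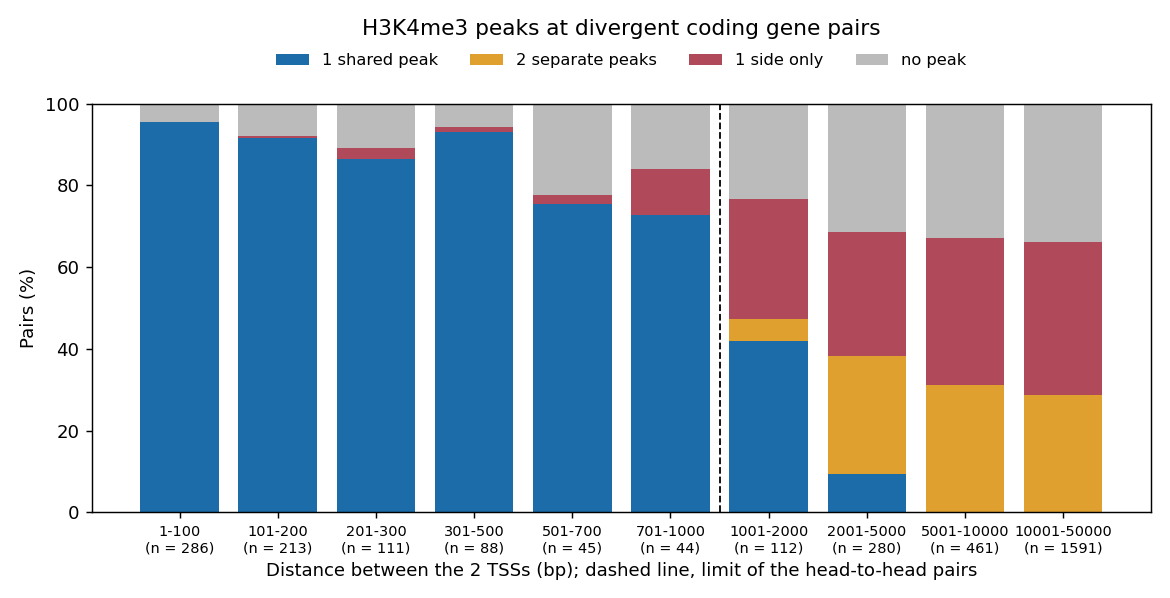
Share of divergent coding gene pairs (y axis, %) with 1 shared peak, 2 separate peaks, a peak at 1 TSS only or no peak, by the distance between the TSSs in bp (x axis, with the number of pairs); bars left of the dashed line are the 787 head-to-head pairs and those right of it are adjacent divergent genes further apart. The shared share is 95.5% at up to 100 bp and 72.7% above 700 bp, and separate peaks, at a tolerance of 250 bp around the TSS, appear only right of the line.

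Shared peaks were wide. Their median width was 3937.5 bp (quartiles 3172.75 and 4783, n = 712), against 3004 bp (2253.5 and 3938, n = 7095) at single coding genes. The median of the pairs was larger on all 20 chromosomes, by 860 ± 352 bp (mean ± SD over chromosomes, from 380.5 to 1648 bp). With the distance between the TSSs taken off, the median of the shared peaks was 3740.5 bp. Peaks shared by a coding gene and a lncRNA gene in the same geometry had a median of 3583 bp (2639.5 and 4805, n = 546). Where the promoter was CpG-rich the medians were 3973 bp for pairs with both promoters so (n = 607) and 3058.5 bp for single genes (n = 5878). In 68 of the 712 pairs (9.55%) the peak also held the TSS of another coding gene, and these had a median of 4277 bp, against 3879 bp for the other 644.

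**Figure D3:**
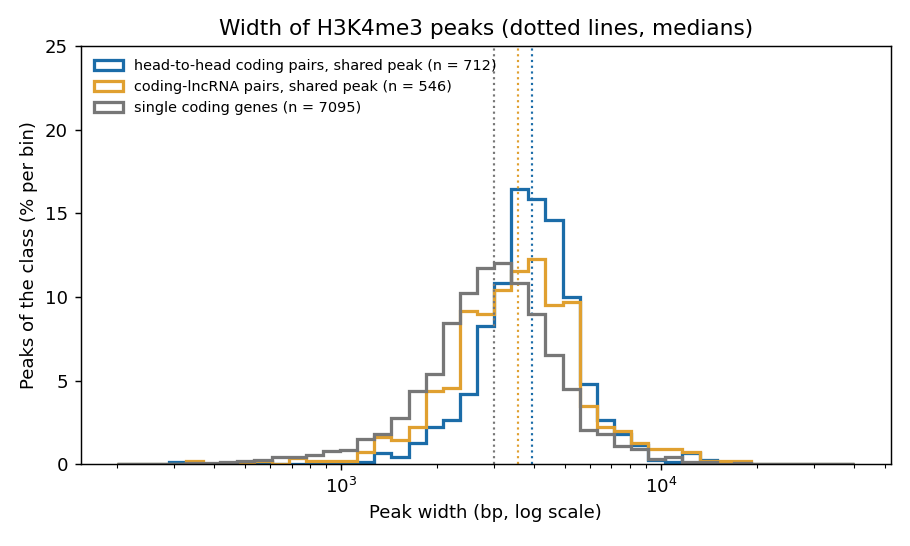
Width of H3K4me3 peaks in bp on a log axis (x) and the share of peaks of each class per bin (y, %), for head-to-head coding pairs with a shared peak (blue), coding-lncRNA pairs with a shared peak (orange) and single coding genes (grey), with dotted lines at the medians. The medians lie at 3937.5, 3583 and 3004 bp, and the distributions overlap over most of their range.

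The greater width went with spread in both directions, and the reach into each gene was not longer than at single genes. The reach is the distance from a gene's outermost TSS to the edge of the peak on the side of its body. Its median was 1878 bp in the minus-strand genes and 1869 bp in the plus-strand genes (n = 712 each), 1874 bp over both (quartiles 1393.5 and 2390.25). At single genes the peak reached 2172 bp downstream (1594.5 and 2837) and 756 bp upstream (430 and 1181). The reach into a pair gene was thus below the downstream reach of single genes in median, by 325 ± 147 bp over chromosomes (fell short on 19 of 20, the exception being chromosome 16), and far above their upstream spread. The coverage around the midpoint shows the same shape: 48.7% of the shared pairs were covered 2 kb to the left of the midpoint and 48.9% 2 kb to the right, against 6.98% upstream and 58.3% downstream at single genes. The peak edge lay beyond the first exon but within the gene in 1319 of 1424 genes (92.6%), in the first exon in 39, past the gene end in 56 and short of the TSS in 10. At single genes 95.1% of edges lay beyond the first exon and within the gene.

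**Figure D4:**
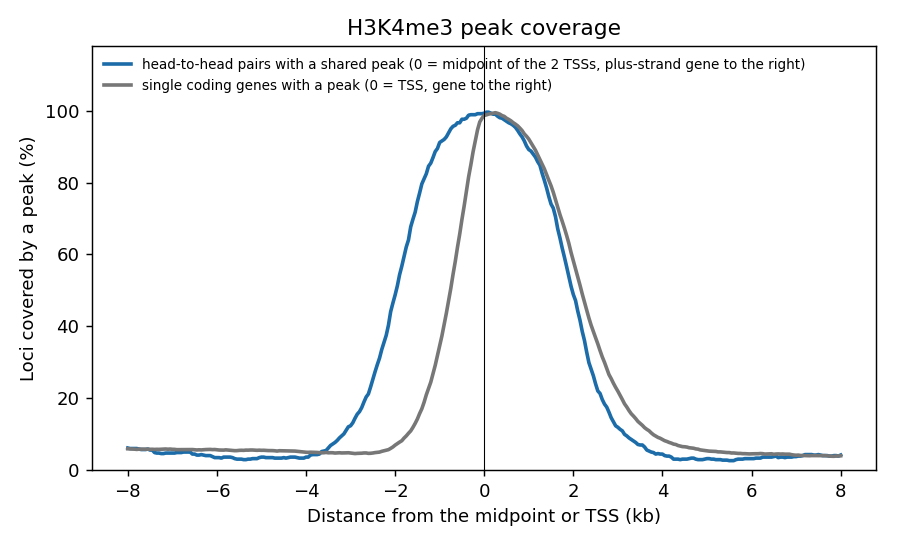
Share of loci covered by a peak (y axis, %) by distance in kb (x axis) from the midpoint of the TSSs in head-to-head pairs with a shared peak (blue, plus-strand gene to the right) and from the TSS in single coding genes with a peak (grey, gene to the right). At 2 kb to the left the pairs stand at 48.7% and the single genes at 6.98%, while at 2 kb to the right the pairs stand at 48.9%, below the single genes at 58.3%.

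The reach followed the number of CpGs downstream of the start. Pair genes with a shared peak had a median of 54 CpGs in their first 2 kb, against 71 at single genes with a peak. At 40 to 59 CpGs the median reach was 1820 bp in pair genes (n = 569) and 1821 bp in single genes (n = 1699). At 60 to 79 CpGs it was 2113 bp (n = 295) and 2151 bp (n = 1810), at 80 or more 2448 bp (n = 252) and 2580.5 bp (n = 2852), and at fewer than 40 it was 1297.5 bp (n = 308) and 1535 bp (n = 734). These classes were chosen after the values were seen. At like CpG number the pair genes and the single genes therefore differed by 1 to 237.5 bp in median, pairs being lower in all 4 classes.

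Within a pair, the 2 reaches often differed, mostly by less than 2-fold. The ratio of the longer to the shorter had a median of 1.47, over the 702 pairs in which both edges lay past the TSS. The longer reach had a median of 2240.5 bp and the shorter 1492.5 bp. Their difference had a median of 676 bp (307.5 and 1270, from 2 to 10204 bp). It was under 500 bp in 277 of 712 pairs (38.9%), and the longer reach was at least 2 times the shorter in 192 (27.0%). The longer side was the minus-strand gene in 356 of 712 pairs, as often as the plus-strand gene. Both genes were covered for at least 1000 bp in 559 pairs (78.5%), and at least 1 gene for less than 500 bp in 55 (7.72%). Across pairs the reaches into the minus-strand and plus-strand genes were hardly related (Spearman's rho 0.13, Pearson's r 0.12 over 712 pairs, a description, since both reaches come from the same peak).

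The longer side was more often the side with more CpGs. Where the CpG numbers in the first 2 kb differed, the gene with more of them had the longer reach in 472 of 703 pairs (67.1%, 63.6 to 70.5%), and in 200 of 254 (78.7%, 73.3 to 83.3%) where the reaches differed by 1000 bp or more. The longer-reach gene had a median of 60 CpGs and the shorter-reach gene 48. The longer side was the gene with the longer body in 348 of 712 pairs (48.9%, 45.2 to 52.5%), and in 126 of 257 (49.0%, 43.0 to 55.1%) where the reaches differed by 1000 bp or more. It was the gene with the further downstream TSS in 280 of 559 (50.1%, 46.0 to 54.2%), and in 91 of 210 (43.3%, 36.8 to 50.1%) where the reaches differed by 1000 bp or more.

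**Figure D5:**
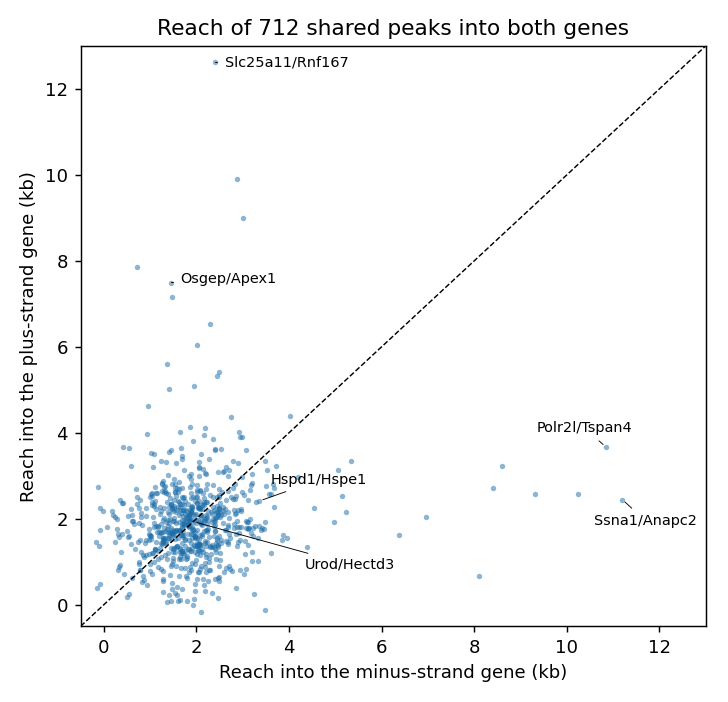
Reach of the 712 shared peaks into the minus-strand gene (x axis, kb) and into the plus-strand gene (y axis, kb), 1 point a pair, with the dashed line where both are equal. Most points lie between 1 and 3 kb on both axes around the line, and a few pairs such as Slc25a11/Rnf167 (2412 and 12616 bp) and Ssna1/Anapc2 (11198 and 2448 bp) lie far from it on 1 axis.

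The most even pairs, among those with both reaches of at least 1000 bp, held genes of metabolism and DNA repair. Urod, an enzyme of haem synthesis, and Hectd3, a ubiquitin ligase, start 904 bp apart, and their peak of 4775 bp reached 1936 and 1934 bp. Tatdn1 and Ndufb9, a subunit of respiratory complex I, start 26 bp apart, with reaches of 1818 and 1824 bp. Idh3g/Ssr4 on chromosome X, whose sequence is shown above, had 2109 and 2093 bp, and Dclre1b/Ap4b1, a telomere and crosslink repair nuclease with an adaptor subunit, 2109 and 2091 bp.

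The widest and least even peaks ran on over neighbouring genes. The widest was the peak of Slc25a11, the mitochondrial oxoglutarate carrier, and Rnf167, a RING ubiquitin ligase, at 15258 bp, with a reach of 2412 bp into Slc25a11 and of 12616 bp on the side of Rnf167. Polr2l/Tspan4 followed at 14625 bp, with 10844 bp on the side of Polr2l and 3672 bp into Tspan4. Ssna1/Anapc2, of which Anapc2 encodes a subunit of the anaphase-promoting complex, had 13709 bp, with 11198 and 2448 bp. Med22, a Mediator subunit, and Rpl7a, a ribosomal protein, had 12080 bp, with 3004 and 8988 bp. Osgep, a tRNA-modifying enzyme, and Apex1, the main abasic-site endonuclease, had 9030 bp, with 1460 and 7494 bp. In the 13 pairs whose reaches differed by at least 5000 bp, the peak held the TSS of another coding gene in 12, and the longer edge lay past the end of the gene in 11.

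Of the 10 narrowest shared peaks, 3 did not cover both TSSs. Mfsd8 and Abhd18 had a peak of 315 bp that covered neither TSS, with its edge 153 bp short of the TSS of Mfsd8, and reached 382 bp into Abhd18. H2-T22/Gm6034, shown above, had 604 bp, with its edge 90 bp short of the TSS of H2-T22. F8, the coagulation factor VIII gene, and Fundc2 on chromosome X had 1355 bp, with reaches of 357 and 914 bp and with 12 CpGs in the first 2 kb of F8 and 27 in that of Fundc2.

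Of the 11 pairs with a peak at 1 TSS only, most had TSSs far apart, with a median distance of 638 bp (from 101 to 932 bp), against 136 bp in pairs with a shared peak. In 7 of them the peak covered its own TSS and stopped short of the other. Sympk, a scaffold of mRNA 3′ end processing, had a peak of 2939 bp that ended 362 bp before the TSS of Foxa3, a forkhead factor of liver and gut. Pus3, a pseudouridine synthase, had a peak of 1771 bp ending 499 bp before Ddx25, a testis RNA helicase. Reep6 had a peak of 1144 bp ending 434 bp before Pcsk4, a germ-cell protease. Ppp1ca, a catalytic subunit of protein phosphatase 1, had a peak of 4640 bp ending 261 bp before Tbc1d10c, just outside the 250 bp allowed. P3h4 and Fkbp10, both of which act in collagen modification, differed: the peak of 2693 bp lay at P3h4 and ended 436 bp before Fkbp10. In the other 4 pairs the peak covered neither TSS.

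Those 4 included 3 histone pairs, and histone genes stood apart from the other members. Of the 13 pairs of 2 histone genes, 5 had a shared peak, 3 a peak at 1 TSS and 5 none, although both promoters were CpG-rich in 9. In Hist1h2ak/Hist1h2bn the peak of 2321 bp began 246 bp inside the TSS of Hist1h2ak and left both TSSs and the DNA between them, printed above, uncovered. Hist1h2ac/Hist1h2bc had a peak of 2110 bp beginning 248 bp inside the TSS of Hist1h2bc, and Hist1h2bl/Hist1h2ai one of 6791 bp beginning 245 bp inside that of Hist1h2ai. In Hist1h2an/Hist1h2bp and Hist1h2ae/Hist1h2bg, counted as without a peak, the nearest peak was 251 and 332 bp away. In 5 of the 8 histone pairs without a shared peak, a peak lay within 332 bp of a TSS. By contrast, Hist2h2ac/Hist2h2be shared a peak of 3878 bp with reaches of 2297 and 1341 bp. The same peak was shared by Bola1/Hist2h2ab, and its edge lay past the end of Hist2h2ac, which is 520 bp long. Hist1h2ag/Hist1h2bj and Hist1h2ah/Hist1h2bk lay in a single peak of 13087 bp. Without the 13 histone pairs, 91.3% of pairs had a shared peak. On chromosome 13, where most of them lie, 73.2% of pairs shared a peak, and 89.7% (26 of 29) without the histone pairs.

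The 64 pairs without a peak had fewer CpGs at their TSSs, with a median of 24 within 250 bp, against 40 in pairs with a shared peak, and their TSSs were further apart, at a median of 217.5 bp against 136 bp. The nearest peak lay at a median of 44352.5 bp, and within 1000 bp in 4 of 64. By the number of CpGs, the leading members without a peak were Zfyve28/Cfap99, Ppp1r3d/Fam217b, Sobp/9030612E09Rik and Draxin/Mad2l2. Draxin, a secreted axon guidance protein, and Mad2l2, a subunit of DNA polymerase zeta, had 57 and 58 CpGs within 250 bp of their TSSs. The nearest peak was 8147 bp away. Only the outermost TSS of each gene was scored, so a peak at a TSS far downstream was not counted. Mad2l2 had a further annotated TSS 9828 bp downstream, and whether the nearest peak lay at it was not examined. Smc1b, a subunit of meiotic cohesin, with Ribc2, and Stag3, another meiotic cohesin subunit, with Gm43720, were also among the 12 richest in CpGs. Further pairs, named after their values were seen, included genes of specialised cells: Col4a4/Col4a3, basement membrane collagens, Pecam1/Milr1, where Pecam1 is an endothelial gene, Duox2/Duoxa2, which make hydrogen peroxide in the thyroid, and Kirrel2/Nphs1, kidney podocyte genes. Peg3/Usp29 and Sgce/Peg10, pairs of imprinted genes expressed from the paternal allele in mouse, had no peak within 346017 and 144932 bp. Hspa1a/Hspa1l, where Hspa1a is heat-inducible, had none within 6276 bp, and its promoter was multi-copy. Of the 64 pairs, 5 had a multi-copy promoter, a promoter whose sequence recurs at another gene so that its reads can lack a unique position, against 1 of 712 with a shared peak.

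Most of the gene families looked at had the mark at nearly all their members in pairs, as did pair genes as a whole (91.2%, against 47.6% of all coding genes), with histones (14 of 27), chaperones and collagens below that share. Of 78 mitochondrial ribosomal protein genes, 21 were in pairs (26.9%, against 7.13% of all coding genes), and all 21 had a peak, as did all 78. Klc4/Mrpl2 had the widest of their peaks, at 8266 bp. Of 94 genes of the respiratory chain and ATP synthase, 22 were in pairs, all with a peak, in 23 shared pairs such as Vmac/Ndufa11 (6270 bp) and Atp5c1/Kin (5632 bp). Of 105 DNA replication and repair genes, 27 were in pairs, all with a peak, among them Atm with Npat (5071 bp). Of 58 genes of RNA polymerases and Mediator, 13 were in pairs, all with a peak. The 8 proteasome, 9 splicing, 9 cytosolic ribosome and 6 tRNA synthetase genes in pairs all had one too, with Psmb1/Tbp at 5633 bp and Srsf11/Lrrc40 at 8018 bp. Of 81 chaperone genes, 15 were in pairs and 12 of these had a peak, and the 2 collagen genes in pairs, Col4a4 and Col4a3, had none. Of 394 zinc finger genes, 20 were in pairs and 19 had a peak, against 271 of all 394. No olfactory receptor (1135 genes), keratin or clustered protocadherin was in a pair. The shares over whole families stood at 89.4% for the respiratory chain, 94.3% for replication and repair and 98.3% for RNA polymerases and Mediator. These families thus had the mark in and out of pairs. Others had lower shares over the whole family: 75.3% for chaperones, 68.8% for zinc finger genes, 64.2% for histones and 34.1% for collagens. Keratins (1.89%), clustered protocadherins (5.26%) and olfactory receptors (0%) mostly lacked it. No list was tested.

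The promoters of pair genes held some motifs more often than other CpG-rich promoters. Windows of 250 bp upstream of each TSS were searched on both strands for CCAAT, the GC box GGGCGG, the ETS site CCGGAAG, the NRF1 core GCATGCG, the YY1 site AAGATGGCG, the TATA box TATAAA, the CRE TGACGTCA and the E-box CACGTG. The windows of both genes of a pair overlap where the TSSs are close, so that a site can count for both. Where the TSSs are under 250 bp apart, a window also runs past the partner's TSS into the partner gene. The ETS site was in 25.1% of pair genes with a CpG-rich promoter, against 12.5% of other coding genes with one and 8.40% of all coding promoters. The YY1 site was in 3.67% against 0.966% (all coding promoters 0.717%), and CCAAT in 41.5% against 34.5% (all 35.8%). The GC box was in 67.3% against 67.0% (all 41.3%), the NRF1 core in 7.34% against 6.00% (all 3.76%), the CRE in 4.34% against 2.90% (all 2.06%) and the E-box in 8.61% against 9.58% (all 6.67%). The TATA box was in 2.99% against 5.30% (all 11.4%). In the DNA strictly between the TSSs, in 764 pairs long enough to be searched, the GC box was in 57.1%, CCAAT in 41.8%, the ETS site in 17.3% and the TATA box in 4.32%. The E-box was there in 7.46%, the NRF1 core in 6.28%, the CRE in 3.14% and the YY1 site in 0.916% (7 of 764). The higher YY1 share of the windows was thus not seen between the TSSs. These stretches differ in length from the 250 bp windows, so the shares are not like for like.

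Pairs of a coding gene with a lncRNA gene differed in evenness. Of 751 such pairs in the same geometry, 546 had a shared peak (72.7%), 201 had none, 4 had a peak at 1 TSS only and none had separate peaks. The reach into the coding gene had a median of 2283.5 bp, close to the 2172 bp of single genes, and the reach into the lncRNA gene 989 bp. The coding side was the longer in 486 of 546 (89.0%, 86.1 to 91.4%).

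Across chromosomes the share of pairs with a shared peak averaged 89.8 ± 6.53% (SD, n = 20). It was highest on chromosome 8 (98.1%, 51 of 52) and lowest on X (72.7%, 16 of 22) and chromosome 13. On X the shared peaks had a median width of 2589.5 bp, the lowest of the 20, and single genes there had 2131 bp, so that pairs exceeded single genes by 458.5 bp on X too.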

How the data were processed

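H3K4me3 ChIP-seq of C127 cells was used, grouped by the labels. By the study's methods, Bowtie2 placed the reads on mm10, reads that fitted several positions were dropped, and SAMtools took out duplicates. The authors called peaks with MACS2 in each of 3 replicates against the matched control, kept those found in all of them and joined peaks within 250 bp. The submitters' processing notes name these tools and mm10 without versions. The deposited list holds peak positions in bp and no other value, so depth and replicate spread are unknown and no test across samples was run.

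Starts were converted to 1-based positions, and the lengths fitted GRCm38.p6. Genes and TSSs came from GENCODE vM21 basic. A promoter was multi-copy when more than 50% of its 50-bp words, every 5 bp within 250 bp of the TSS, recurred at another coding promoter. Gene families went by symbol, leaving out symbols that share only the prefix. The functions were tested on simulated pairs. The rule for named pairs took textbook pairs, the widest, narrowest, most and least even peaks, all pairs with a peak at 1 TSS, the CpG-richest pairs without a peak and the widest peaks of each family. Some pairs that the rule names are not reported here. Sequences that overlap an annotated exon or exceed 300 bases were not shown. The pairs, families, motifs and alternatives were chosen with earlier results of these data known. Python 3.11.15, numpy 2.4.6, pandas 2.3.3, pysam 0.24.0 and scipy 1.17.1 were used.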

Additional observations from a re-analysis of the deposited data

How the results depend on the processing

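Of 94 values under 13 alternatives, 85 stayed within the 95% interval of the reported value and 9 moved. With TSSs up to 300 bp apart, 92.5% of 610 pairs had a shared peak, 0.656% a peak at 1 TSS only, and 92.8% of genes had a peak. With TSSs up to 2000 bp apart (915 pairs) these were 83.7%, 5.36% and 87.1%, with 0.656% having separate peaks and 10.3% none. With a tolerance of 500 bp around the TSS, 0.254% had a peak at 1 TSS only and 0.254% had separate peaks. Widths, reaches and their differences stayed within the interval under the 11 other alternatives run on them and without shared peaks that hold the TSS of another coding gene, which gave a median width of 3879 bp. The shares with a shared peak, with a peak at 1 TSS only and with none did so without pairs of 2 histone genes. These 2 alternatives were chosen after seeing the data.

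No paired analysis was possible because the replicates are given as 1 consensus list, and for the same reason no replicate was left out. Widths and absent peaks depend on the depth of the ChIP and on the authors' threshold, which were not varied here. A peak had to be found in all 3 replicates.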
